A study of Mus musculus with 12 samples.

Results

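The 47 genes described here act in late G2 and mitosis, and they were chosen as a list of symbols, all of which are in the deposited table as protein-coding genes. Of the 47, 39 reached at least 1 RPKM (read density scaled to gene length and library depth) in at least 3 of 12 libraries and were tested, among 8553 such genes of 46986 features in all. The other 8, Ttk, Cenpe, Cenpf, Kif20b, Ect2, Anln, Dlgap5 and Cdc25c, were under 1 RPKM in every library and count as not measured. RNA came from hematopoietic stem cells (HSCs) sorted from bone marrow of C57BL/6 mice aged 12 weeks, with 2000 cells per library and 3 libraries in each of 4 groups. ABX 5-FU mice drank ampicillin, neomycin, metronidazole and vancomycin (ABX) for 4 to 6 weeks, received 5-fluorouracil (5-FU, 200 mg/kg into a vein) and were sampled on day 12. Ctrl 5-FU mice received the same 5-FU without antibiotics, ABX mice received the antibiotics alone, and Ctrl mice received neither. The 5-FU comparison asks how HSCs recovering from an antimetabolite that kills dividing cells differ from HSCs at steady state, and the antibiotic comparison asks whether the loss of gut bacteria changes either state. The labels do not say if replicate libraries are from different animals, so p-values measure the spread between libraries, which may be technical, and they give no gates for the sort.

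Cells enter mitosis when the kinase Cdk1, bound to a B-type cyclin and a small Cks subunit, becomes active, and they leave it when the anaphase-promoting complex marks cyclin B and securin for destruction. In between, the spindle checkpoint holds anaphase until every kinetochore is attached, the chromosomal passenger complex corrects wrong attachments, and kinesins and microtubule proteins build the spindle and the cleavage furrow. Most HSCs of adult marrow rest outside the cell cycle, and these genes are transcribed mainly in cells that are cycling. Many of these genes are known to share 2 promoter elements, CCAAT boxes bound by NF-Y and the cell cycle genes homology region (CHR) bound by the MuvB complexes, which repress them in resting cells and activate them in G2.

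The promoters of 5 members carry the elements as follows. Cdk1, Top2a, Cdc20 and Mki67 are among the 15 members for which no library with 5-FU reached one without it. Nusap1, Mad2l1 and Birc5 are among those 15 too, and their RefSeq windows, described below, hold neither element. The printed runs therefore do not tie the elements to the 5-FU changes. Ccnb2 is shown because its 5-FU changes with and without antibiotics lay far apart. That difference was not called, as described below, and the printed run does not bear on it. Each run is the 150 bases before the start of the gene in RefSeq on GRCm38.p6, read 5′ to 3′ on the gene's strand, with CCAAT boxes and the CHR in capitals. A CCAAT box is the letters CCAAT, and a CHR is TTTGAA or, less often, TTCGAA, each looked for on both strands, so that a box on the other strand reads ATTGG; no match of one overlaps a match of the other in these runs. The positions are chr10:69352913-69353062 (minus strand) for Cdk1, chr11:99024190-99024339 (minus) for Top2a, chr4:118437344-118437493 (minus) for Cdc20, chr7:135716380-135716529 (minus) for Mki67 and chr9:70421555-70421704 (minus) for Ccnb2.
Cdk1: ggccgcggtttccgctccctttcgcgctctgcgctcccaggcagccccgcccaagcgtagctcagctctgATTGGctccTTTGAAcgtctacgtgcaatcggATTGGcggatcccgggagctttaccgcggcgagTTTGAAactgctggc
Top2a: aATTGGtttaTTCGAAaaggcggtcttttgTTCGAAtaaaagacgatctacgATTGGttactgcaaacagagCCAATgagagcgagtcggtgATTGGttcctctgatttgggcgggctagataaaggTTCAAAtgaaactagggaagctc
Cdc20: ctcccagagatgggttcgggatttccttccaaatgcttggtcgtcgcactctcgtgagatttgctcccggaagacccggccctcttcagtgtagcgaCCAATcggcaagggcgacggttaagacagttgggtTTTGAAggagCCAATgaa
Mki67: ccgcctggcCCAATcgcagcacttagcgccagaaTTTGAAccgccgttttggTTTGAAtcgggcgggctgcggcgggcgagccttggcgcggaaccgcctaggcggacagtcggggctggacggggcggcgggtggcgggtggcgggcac
Ccnb2: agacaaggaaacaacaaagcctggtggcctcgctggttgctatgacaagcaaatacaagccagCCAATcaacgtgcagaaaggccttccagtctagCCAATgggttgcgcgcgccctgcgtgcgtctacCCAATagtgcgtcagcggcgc
In Cdk1 a CHR lies at -15 to -10 and a CCAAT box on the other strand at -48 to -44, and in Cdc20 a CHR at -18 to -13 lies between CCAAT boxes at -53 to -49 and -8 to -4. The printed bases of Ccnb2 hold 3 CCAAT boxes and no CHR, and its CHR matches lie at -167 to -162 and at 5 to 10.

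RefSeq windows of 300 bases, 250 before and 50 after the start, were found for 38 of the 47 members. The CHR letters were in 30 of the 38 windows (78.9%), against 16.2% of 5663 tested genes and 21.7% of 27025 genes with a window. CCAAT on either strand was in 78.9% of member windows, against 43.7% of tested genes, and both elements were in 71.1% of member windows, against 6.8% of tested genes. Among members, the CHR was in 15 of 19 windows of members that fell in either 5-FU comparison and in 10 of 13 windows of tested members that fell in neither. These shares describe letters in a window and were not tested.

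The sorted cells carried HSC genes in every group. Kit, the receptor for stem cell factor, averaged 15.1 ± 1.61 RPKM in ABX 5-FU, 15.7 ± 1.20 RPKM in Ctrl 5-FU, 15.4 ± 1.79 RPKM in ABX and 16.8 ± 0.63 RPKM in Ctrl libraries (SD, n = 3 each). Mecom and Fgd5 of the 9 HSC markers were under the filter, while of the 12 B, T and NK cell markers Cd79b, Nkg7 and Klrb1c passed it. The defining B and T cell genes Pax5, Ms4a1, Cd3e and Cd8a lay at the table's floor of 0.0001 RPKM in all 12 libraries. Klrb1c, which encodes an NK cell receptor, averaged 5.85 ± 0.51 RPKM in ABX 5-FU and 5.38 ± 1.048 RPKM in Ctrl 5-FU libraries, against 0.708 ± 0.11 RPKM in ABX and 0.865 ± 0.34 RPKM in Ctrl libraries (SD, n = 3 each). It rose by 2.004 with and 1.78 without antibiotics on the log2 scale (limma adjusted p = 1.49e-05 and 3.54e-05). Cd79b, a B cell receptor subunit gene, was at 8.56 to 15.0 RPKM and Nkg7, a cytotoxic granule gene, at 23.4 to 49.5 RPKM over all libraries, neither called after 5-FU. The part of these genes in the results was not tested. Estimated depth was 27.8 to 54.7 M reads per library. No i7 index was shared by a library with and one without 5-FU, and so the index and 5-FU cannot be told apart.

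7 libraries stood apart on markers of other cells, and their part in the results was not tested. Ctrl 5-FU replicate 1 had 309 RPKM of the platelet chemokine Pf4 and the highest value of its group for 36 of the 39 tested members. Ctrl 5-FU replicate 3 had 143 RPKM of the neutrophil gene S100a8 and 26.8 RPKM of the neutrophil elastase gene Elane, and replicate 2 of that group, with 213 RPKM summed over the neutrophil and monocyte markers, was lowest for 34 members. ABX 5-FU replicate 1 had 23.4 RPKM of the stromal chemokine Cxcl12 and was lowest of its group for 37 members, and ABX 5-FU replicate 3 had 108 RPKM of the globin Hba-a1. ABX replicate 2 had 21.7 RPKM summed over the 5 macrophage markers, against at most 11.6 RPKM in any other library, and was highest of its group for 31 members. Ctrl replicate 1 had 74.0 RPKM of Hba-a1 and 143 RPKM summed over the megakaryocyte markers, and was highest of its group for 30. The 5 stroma and endothelium markers summed to 27.1 RPKM in ABX 5-FU replicate 1, 13.0 RPKM in Ctrl 5-FU replicate 1 and 5.41 RPKM in Ctrl replicate 1. In no other library did that sum exceed 1.11 RPKM. Summed over the 6 megakaryocyte markers, RPKM was 102 to 123 in ABX 5-FU, 94.5 to 392 in Ctrl 5-FU, 83.0 to 87.5 in ABX and 55.4 to 143 in Ctrl libraries. Summed over the 8 erythroid markers, it was 167 to 509 in ABX 5-FU, 144 to 230 in Ctrl 5-FU, 40.1 to 58.2 in ABX and 29.1 to 305 in Ctrl libraries. Summed over the 7 neutrophil and monocyte markers, it was 113 to 132 in ABX 5-FU, 131 to 362 in Ctrl 5-FU, 99.8 to 125 in ABX and 122 to 134 in Ctrl libraries.

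On day 12 after 5-FU the mitotic genes were lower as a group, with and without antibiotics. The pair ABX 5-FU and ABX is called here the comparison with antibiotics, and the pair Ctrl 5-FU and Ctrl the comparison without. Their summed level over all 47 members was 290, 334 and 348 RPKM in ABX 5-FU and 339, 257 and 288 RPKM in Ctrl 5-FU libraries, against 469, 553 and 450 RPKM in ABX and 503, 394 and 462 RPKM in Ctrl libraries. Every library with 5-FU lay below every library without it on this sum. The RPKM total of all features, to which these values were not rescaled, split the same way. It was 142127 to 157119 in libraries with 5-FU and 165097 to 176924 in libraries without. In these bulk libraries fewer cycling cells and less mitotic RNA per cell cannot be told apart. The map of the members by library shows the split between groups and the libraries that stand apart within them.

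**Figure D1:**
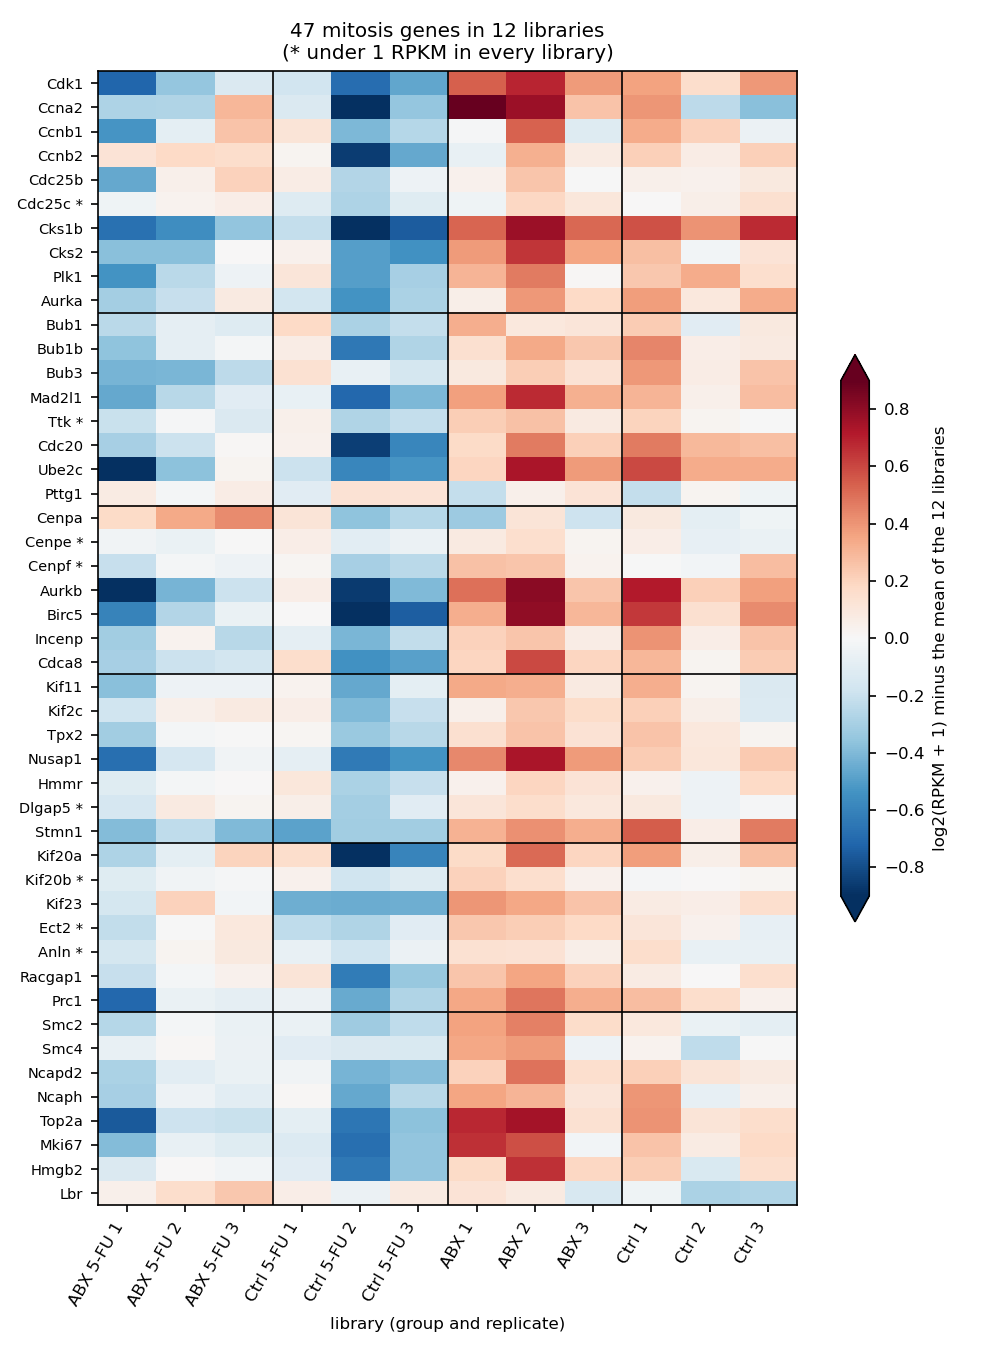
Level of the 47 members in each library as log2(RPKM + 1) minus the mean of the 12 libraries, in role groups from mitotic entry at the top to chromosome structure at the bottom. Colours are bluer in the 6 libraries with 5-FU on the left than in the 6 without on the right for most genes, and Ctrl 5-FU replicate 1 is paler than the other libraries of its group.

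In ABX 5-FU against ABX libraries 19 of the 39 tested members fell and 1 rose, beside 16.5% of all tested genes that were lower and 13.7% that were higher (limma, adjusted p under 0.05). At an unadjusted p under 0.05, 30 members were lower and 1 higher, beside 23.4% and 19.5% of genes. The median log2 change of the members was -0.40, against -0.01 for all genes, and 35 of 39 lay below 0. In Ctrl 5-FU against Ctrl libraries 15 of the 39 fell and 0 rose, beside 11.8% of genes lower and 9.74% higher, and with an unadjusted p under 0.05 the counts were 27 lower and 1 higher, beside 19.6% and 17% of genes. The median there was -0.46, against 0.00 for all genes, and 37 of 39 lay below 0. Both comparisons called 12 members lower, which is 63.2% of the lower calls with antibiotics and 80% of those without, and the comparisons share no library. Over all tested genes 698 were lower in both (8.16%), which is 49.5% of the lower calls with antibiotics and 68.9% of those without. All 6 libraries with 5-FU lay below all 6 without for 15 of 39 members, beside 9.39% of genes. No such share is given for groups that do not overlap within a single 5-FU comparison. A lack of overlap there describes the values of a member and is not read as a result beyond its call.

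How many members passed varied with single libraries. In Ctrl 5-FU against Ctrl, 28 members were called lower without Ctrl 5-FU replicate 1, 6 without each of Ctrl 5-FU replicate 2, Ctrl 5-FU replicate 3 and Ctrl replicate 1, and 7 without Ctrl replicate 3. In ABX 5-FU against ABX, 12 were called lower without ABX 5-FU replicate 1 and 11 without ABX replicate 2. When the libraries were rescaled to one total (TPM), 12 members were lower with antibiotics and 8 without, and the median log2 change of all genes moved to 0.11 and 0.14. Among all called genes, 74.1% were then higher with antibiotics and 81.2% without, against 45.4% and 45.1% before rescaling. The member median less the median of all genes was then -0.39 with and -0.43 without antibiotics, and over the alternatives run with the filter on low values its highest value was -0.33 with and -0.34 without.

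Among the genes of mitotic entry, Cks1b had the lowest log2 change of RPKM + 1 of all 39 members in both comparisons. That scale understates changes of low genes, so the rank holds for this scale only. It encodes a Cks subunit that docks Cdk complexes to phosphorylated targets. Cks1b (chromosome 3, 89415472 to 89418383, mm10) had 17.7, 19.2 and 22.3 RPKM in ABX 5-FU libraries, against 41.7, 49.8 and 41.6 RPKM in ABX libraries, a log2 change of -1.13 ± 0.16 (SE, limma adjusted p = 0.000808). It had 24.6, 14.8 and 16.7 RPKM in Ctrl 5-FU libraries, against 43.2, 38.3 and 46.4 RPKM in Ctrl libraries, a change of -1.17 ± 0.16 (limma adjusted p = 0.00124). The 6 libraries with 5-FU and the 6 without did not overlap, and the call held in all 18 alternatives of each comparison.

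Cdk1 (chromosome 10, 69336635 to 69352938), the kinase itself, had 1.91, 2.75 and 3.34 RPKM in ABX 5-FU libraries, against 5.92, 6.65 and 5.19 RPKM in ABX libraries, and fell by 0.93 on the log2 scale (limma adjusted p = 0.00185). Without antibiotics it had 3.23, 1.96 and 2.43 RPKM after 5-FU, against 5.10, 4.30 and 5.25 RPKM in Ctrl libraries, a log2 change of -0.75 ± 0.16 (limma adjusted p = 0.00904). Its groups did not overlap in either comparison, and it too was called in all 18 alternatives of each. Its partner cyclins behaved less evenly. Ccnb1 (chromosome 13, 100778650 to 100786570), cyclin B1, had 6.87, 9.69 and 12.6 RPKM in ABX 5-FU and 11.3, 7.58 and 8.53 RPKM in Ctrl 5-FU libraries, against 10.3, 15.4 and 9.50 RPKM in ABX and 13.3, 12.1 and 9.93 RPKM in Ctrl libraries. The Ccnb1 groups overlapped in both comparisons, with log2 changes of -0.25 (limma adjusted p = 0.406) and -0.34 (limma adjusted p = 0.284).

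Ccnb2 (chromosome 9, 70407689 to 70421554), cyclin B2, had 5.20, 5.47 and 5.36 RPKM in ABX 5-FU and 4.81, 2.16 and 3.15 RPKM in Ctrl 5-FU libraries, against 4.46, 6.14 and 5.02 RPKM in ABX and 5.64, 4.98 and 5.62 RPKM in Ctrl libraries. It fell without antibiotics, by 0.60 on the log2 scale (limma adjusted p = 0.0335, called in 10 of 18 alternatives), and its log2 change with antibiotics was 0.04 (limma adjusted p = 0.883). The difference between those changes was 0.64, with an unadjusted p of 0.0263 and a limma adjusted p of 0.583. Ccna2 (chromosome 3, 36564865 to 36572150), the S and G2 phase cyclin A2, had 8.94, 9.03 and 13.9 RPKM in ABX 5-FU libraries, against 21.8, 19.6 and 13.5 RPKM in ABX libraries. Those groups overlapped at replicate 3 of each, and the log2 change was -0.73 (limma adjusted p = 0.0623). Ccna2 had 10.04, 5.04 and 8.5 RPKM in Ctrl 5-FU libraries, against 14.9, 9.25 and 8.29 RPKM in Ctrl libraries, again overlapping (log2 change -0.42, limma adjusted p = 0.291). Aurka (chromosome 2, 172356190 to 172370535), the centrosomal mitotic kinase, had 1.81, 1.18 and 1.59 RPKM in Ctrl 5-FU libraries, against 3.10, 2.37 and 2.98 RPKM in Ctrl libraries, and fell by 0.60 (limma adjusted p = 0.0108), a call kept in all 18 alternatives. With antibiotics Aurka had 1.55, 1.73 and 2.34 RPKM after 5-FU, against 2.27, 3.13 and 2.57 RPKM in ABX libraries, overlapping groups with a log2 change of -0.35 (limma adjusted p = 0.0674). Plk1, a kinase of mitotic entry and spindle assembly, and Cks2, the other Cks subunit, fell with antibiotics by 0.54 and 0.71 (limma adjusted p = 0.0331 and 0.00813). Without antibiotics their log2 changes were -0.47 and -0.46 (limma adjusted p = 0.0666 and 0.066), with groups that did not overlap for Plk1 and did for Cks2. Cdc25b, the phosphatase that activates Cdk1, had 2.17, 3.51 and 4.05 RPKM in ABX 5-FU and 3.58, 2.63 and 3.22 RPKM in Ctrl 5-FU libraries, against 3.48, 4.20 and 3.36 RPKM in ABX and 3.50, 3.48 and 3.65 RPKM in Ctrl libraries. The Cdc25b groups overlapped in both comparisons, with log2 changes of -0.16 with and -0.14 without antibiotics (limma adjusted p = 0.439 and 0.538), and the value without antibiotics turned above 0 when rescaled to one total.

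Of the 7 tested checkpoint and anaphase-promoting genes, Ube2c and Mad2l1 fell in both comparisons. Ube2c, the ubiquitin-conjugating enzyme of the anaphase-promoting complex, had 1.96, 3.32 and 4.69 RPKM in ABX 5-FU and 3.88, 2.72 and 2.87 RPKM in Ctrl 5-FU libraries, against 5.38, 8.29 and 6.30 RPKM in ABX and 7.43, 6.03 and 6.04 RPKM in Ctrl libraries. The groups did not overlap, and the change was -0.86 ± 0.21 in both comparisons (limma adjusted p = 0.0121 with antibiotics and 0.0175 without). Mad2l1 (chromosome 6, 66535390 to 66547220), which encodes the checkpoint protein Mad2, had 3.59, 4.30 and 4.88 RPKM in ABX 5-FU libraries, against 7.16, 9.06 and 6.90 RPKM in ABX libraries, a log2 change of -0.73 ± 0.16 (limma adjusted p = 0.00645). Without antibiotics it had 5.04, 2.88 and 3.76 RPKM after 5-FU, against 6.79, 5.53 and 6.65 RPKM in Ctrl libraries, and fell by 0.60 (limma adjusted p = 0.0214). Mad2l1 groups did not overlap in either comparison.

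Cdc20 (chromosome 4, 118432901 to 118437352), which activates the anaphase-promoting complex, had 13.1, 14.2 and 16.6 RPKM in ABX 5-FU and 16.9, 8.69 and 10.6 RPKM in Ctrl 5-FU libraries, against 18.6, 23.1 and 19.2 RPKM in ABX and 23.1, 20.3 and 20.1 RPKM in Ctrl libraries. No library with 5-FU reached any library without it, and the log2 changes were -0.44 (limma adjusted p = 0.0919) with antibiotics and -0.81 (limma adjusted p = 0.0122) without. Bub3 (chromosome 7, 131560391 to 131571898), a kinetochore adaptor of the checkpoint, fell to 11.2, 11.3 and 12.8 RPKM in ABX 5-FU libraries, against 16.3, 18.0 and 16.9 RPKM in ABX libraries (log2 change -0.50, limma adjusted p = 0.00458), and had 16.9, 14.6 and 13.6 RPKM in Ctrl 5-FU libraries, against 20.3, 16.0 and 18.5 RPKM in Ctrl libraries, which overlapped (log2 change -0.27, limma adjusted p = 0.0844). Bub1 and Bub1b, the checkpoint kinase and its relative, had log2 changes of -0.32 and -0.39 with antibiotics and -0.18 and -0.47 without, none called. Pttg1 (chromosome 11, 43420250 to 43426251), securin, did not follow them: 4.29, 3.96 and 4.26 RPKM in ABX 5-FU and 3.69, 4.49 and 4.46 RPKM in Ctrl 5-FU libraries, against 3.33, 4.20 and 4.47 RPKM in ABX and 3.33, 4.12 and 3.89 RPKM in Ctrl libraries. Its log2 changes were 0.06 and 0.12, with overlapping groups in both comparisons.

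**Figure D2:**
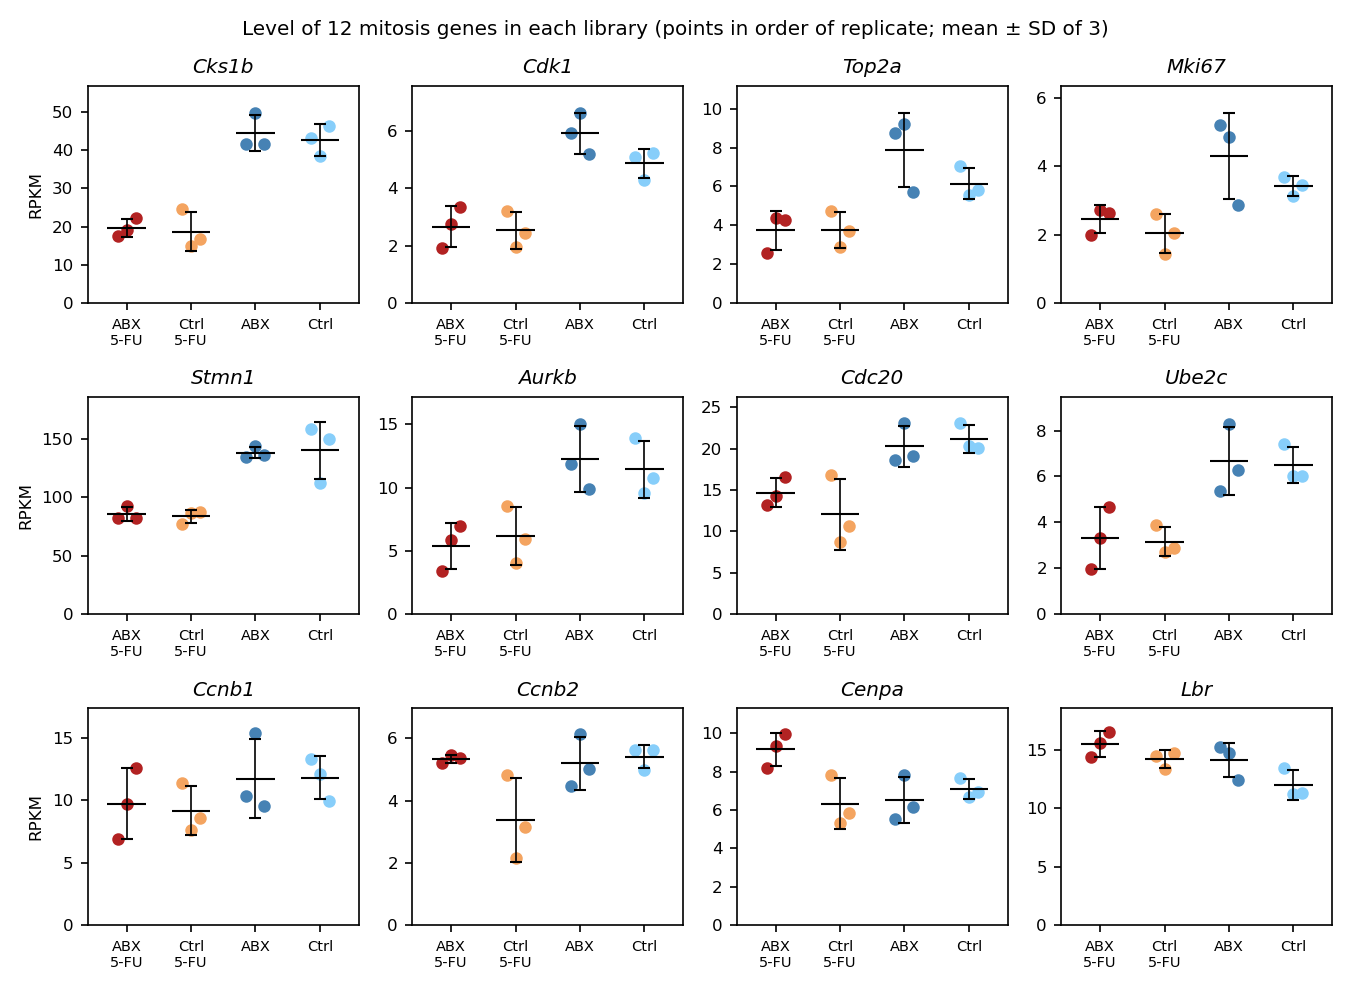
RPKM of 12 members in each library, with the groups ABX 5-FU, Ctrl 5-FU, ABX and Ctrl from left to right, a point per library and a bar for the mean ± SD of 3. For Cks1b and Cdk1 every library with 5-FU lies below every library without it, whereas for Lbr and Ccnb1 the groups overlap and for Cenpa the ABX 5-FU libraries, at 8.20 to 9.93 RPKM, lie highest.

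Genes of the chromosomal passenger complex fell: of Aurkb, Birc5, Incenp and Cdca8, all 4 fell with antibiotics and 3 fell without. Aurkb (chromosome 11, 69045647 to 69051664), its kinase, had 3.41, 5.84 and 6.98 RPKM in ABX 5-FU and 8.53, 4.01 and 5.93 RPKM in Ctrl 5-FU libraries, against 11.8, 15.0 and 9.86 RPKM in ABX and 13.9, 9.59 and 10.8 RPKM in Ctrl libraries. Its groups did not overlap, with log2 changes of -1.07 ± 0.26 (limma adjusted p = 0.0107) with antibiotics and -0.83 ± 0.26 (limma adjusted p = 0.0422) without. Birc5 (chromosome 11, 117849251 to 117855743), survivin, had 3.77, 5.02 and 5.95 RPKM in ABX 5-FU and 6.24, 2.73 and 3.33 RPKM in Ctrl 5-FU libraries, against 8.09, 11.6 and 7.91 RPKM in ABX and 10.2, 6.99 and 8.71 RPKM in Ctrl libraries. It fell by 0.78 with and by 0.97 without antibiotics (limma adjusted p = 0.0301 and 0.0169). Birc5 groups did not overlap in either comparison.

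Incenp, the scaffold of the complex, had 1.59, 2.27 and 1.70 RPKM in ABX 5-FU and 2.04, 1.41 and 1.76 RPKM in Ctrl 5-FU libraries, against 2.71, 2.81 and 2.37 RPKM in ABX and 3.25, 2.34 and 2.83 RPKM in Ctrl libraries. The Incenp groups did not overlap, and it fell by 0.35 with and 0.48 without antibiotics (limma adjusted p = 0.0463 and 0.0185). Cdca8, which encodes borealin, had 1.86, 2.07 and 2.14 RPKM in ABX 5-FU and 2.92, 1.41 and 1.51 RPKM in Ctrl 5-FU libraries, against 3.02, 4.30 and 3.02 RPKM in ABX and 3.32, 2.58 and 3.12 RPKM in Ctrl libraries. It fell by 0.55 with antibiotics (limma adjusted p = 0.0334), while its change of -0.48 without them missed the threshold (limma adjusted p = 0.0697) with overlapping groups.

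Cenpa went the other way with antibiotics and was the 1 member called higher. Cenpa (chromosome 5, 30666777 to 30674830), the histone H3 variant that marks centromeres, had 8.20, 9.32 and 9.93 RPKM in ABX 5-FU and 7.81, 5.33 and 5.83 RPKM in Ctrl 5-FU libraries, against 5.51, 7.82 and 6.17 RPKM in ABX and 7.64, 6.67 and 6.94 RPKM in Ctrl libraries. The ABX 5-FU and ABX libraries did not overlap, with a log2 change of 0.44 ± 0.14 (limma adjusted p = 0.0314), and the call was lost in 5 of 18 alternatives, among them without ABX 5-FU replicate 2 or 3 and without ABX replicate 1 or 3. The change without antibiotics was -0.16 (limma adjusted p = 0.442), and the difference between the 2 changes, 0.60, had an unadjusted p of 0.01 and a limma adjusted p of 0.506. The value without antibiotics turns above 0 when the libraries are rescaled to one total.

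Of the 6 tested spindle genes, Stmn1 and Nusap1 fell in both comparisons. Stmn1 (chromosome 4, 134468320 to 134473843), which encodes the microtubule-destabilizing protein stathmin, was the most abundant member, with 82.4, 92.2 and 81.8 RPKM in ABX 5-FU and 77.3, 86.7 and 87.0 RPKM in Ctrl 5-FU libraries, against 134, 144 and 136 RPKM in ABX and 158, 113 and 150 RPKM in Ctrl libraries. The log2 changes were -0.69 ± 0.11 (limma adjusted p = 0.00159) with antibiotics and -0.72 ± 0.11 (limma adjusted p = 0.00225) without, and the groups did not overlap. Reads could be split with its processed pseudogene Gm11223, identical at 97.609% over 460 bases and listed at up to 189.5 RPKM. The sum of both was 176 to 209 RPKM in ABX 5-FU and 165 to 185 RPKM in Ctrl 5-FU libraries, against 296 to 308 RPKM in ABX and 236 to 348 RPKM in Ctrl libraries. Nusap1 (chromosome 2, 119618298 to 119651244), a spindle microtubule binder, had 0.61, 1.32 and 1.51 RPKM in ABX 5-FU libraries, against 2.47, 3.27 and 2.35 RPKM in ABX libraries, and fell by 0.80 (limma adjusted p = 0.00714). Nusap1 had 1.42, 0.655 and 0.766 RPKM in Ctrl 5-FU libraries, against 2.02, 1.75 and 2.03 RPKM in Ctrl libraries, and fell by 0.61 (limma adjusted p = 0.0324). Its groups did not overlap in either comparison.

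Tpx2, a spindle assembly factor that activates Aurora A, had 0.69, 1.08 and 1.1 RPKM in ABX 5-FU and 1.13, 0.669 and 0.766 RPKM in Ctrl 5-FU libraries, against 1.33, 1.52 and 1.30 RPKM in ABX and 1.52, 1.24 and 1.14 RPKM in Ctrl libraries. Groups did not overlap for Tpx2, yet the log2 changes of -0.29 with and -0.31 without antibiotics missed the threshold (limma adjusted p = 0.0755 and 0.0707). Hmmr, a spindle-associated protein gene, had 0.751, 0.869 and 0.901 RPKM in ABX 5-FU and 1.03, 0.55 and 0.636 RPKM in Ctrl 5-FU libraries, against 0.945, 1.16 and 1.06 RPKM in ABX and 0.94, 0.831 and 1.14 RPKM in Ctrl libraries. The groups overlapped without antibiotics only, and the changes of -0.16 with and -0.19 without were not called, while Kif11 and Kif2c had log2 changes of -0.40 and -0.17 with antibiotics and -0.25 and -0.23 without, none called.

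Among the 4 tested cytokinesis genes, Kif23 fell in both comparisons and Prc1 with antibiotics. Kif23 (chromosome 9, 61917280 to 61946799), the kinesin of the central spindle, had 0.908, 1.46 and 1.09 RPKM in ABX 5-FU and 0.574, 0.560 and 0.573 RPKM in Ctrl 5-FU libraries, against 1.81, 1.71 and 1.55 RPKM in ABX and 1.25, 1.22 and 1.37 RPKM in Ctrl libraries. Its groups did not overlap within either comparison. Kif23 reached 1 RPKM in every library without 5-FU but, with 5-FU, only in ABX 5-FU replicates 2 and 3. Kif23 thus passed the filter only through the groups where it was high, and its calls carry that limit. It fell by 0.33 with antibiotics (limma adjusted p = 0.0181, called in 11 of 18 alternatives) and by 0.54 without (limma adjusted p = 0.00288, called in all 18). Prc1 (chromosome 7, 80294450 to 80316259), which crosslinks the central spindle, had 1.63, 3.11 and 3.05 RPKM in ABX 5-FU libraries, against 4.45, 4.97 and 4.38 RPKM in ABX libraries, a log2 change of -0.67 (limma adjusted p = 0.0101). It had 3.13, 2.13 and 2.56 RPKM in Ctrl 5-FU libraries, against 4.20, 3.79 and 3.39 RPKM in Ctrl libraries, which did not overlap but missed the threshold (log2 change -0.42, limma adjusted p = 0.0837).

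The kinesin gene Kif20a had 3.34, 3.94 and 5.02 RPKM in ABX 5-FU and 4.87, 1.68 and 2.49 RPKM in Ctrl 5-FU libraries, against 4.91, 6.47 and 5.01 RPKM in ABX and 5.83, 4.46 and 5.33 RPKM in Ctrl libraries. Its groups overlapped in both comparisons, with log2 changes of -0.35 with and -0.70 without antibiotics (limma adjusted p = 0.289 and 0.0546). Racgap1, a central spindle partner of Kif23, had 2.37, 2.85 and 3.01 RPKM in ABX 5-FU and 3.22, 1.53 and 2.08 RPKM in Ctrl 5-FU libraries, against 3.63, 3.99 and 3.50 RPKM in ABX and 3.10, 2.91 and 3.33 RPKM in Ctrl libraries. Its groups overlapped without antibiotics and not with them, and the changes of -0.33 with and -0.36 without were not called (limma adjusted p = 0.112 and 0.109).

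Of the 8 chromosome structure genes, Mki67 and Ncapd2 fell in both comparisons and Top2a and Smc2 with antibiotics. Mki67 (chromosome 7, 135689788 to 135716379), the proliferation marker Ki-67, had 1.99, 2.73 and 2.64 RPKM in ABX 5-FU and 2.60, 1.44 and 2.06 RPKM in Ctrl 5-FU libraries, against 5.19, 4.85 and 2.85 RPKM in ABX and 3.69, 3.11 and 3.44 RPKM in Ctrl libraries. Its groups did not overlap, and it fell by 0.59 (limma adjusted p = 0.0303) with and by 0.56 (limma adjusted p = 0.0493) without antibiotics. The call without antibiotics was lost in 13 of 18 alternatives. Top2a (chromosome 11, 98992943 to 99024189), topoisomerase II alpha, had 2.60, 4.36 and 4.28 RPKM in ABX 5-FU and 4.72, 2.87 and 3.71 RPKM in Ctrl 5-FU libraries, against 8.74, 9.22 and 5.70 RPKM in ABX and 7.07, 5.58 and 5.80 RPKM in Ctrl libraries. No library with 5-FU reached one without. Top2a fell by 0.90 with antibiotics (limma adjusted p = 0.00714), and its change of -0.60 without them missed the threshold (limma adjusted p = 0.0548).

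Lbr (chromosome 1, 181815335 to 181843046), the lamin B receptor of the nuclear envelope, lay on the other side of 0. It had 14.4, 15.6 and 16.6 RPKM in ABX 5-FU and 14.5, 13.3 and 14.7 RPKM in Ctrl 5-FU libraries, against 15.2, 14.7 and 12.4 RPKM in ABX and 13.5, 11.2 and 11.3 RPKM in Ctrl libraries. The groups overlapped and the log2 changes were 0.13 (limma adjusted p = 0.335) and 0.23 (limma adjusted p = 0.109), but under each of the 3 rescalings Lbr was called higher without antibiotics.

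Smc2, a condensin subunit, had 0.698, 1.01 and 0.941 RPKM in ABX 5-FU libraries, against 1.61, 1.78 and 1.28 RPKM in ABX libraries, and fell by 0.44 (limma adjusted p = 0.00898). Smc2 had 0.941, 0.625 and 0.735 RPKM in Ctrl 5-FU libraries, against 1.17, 0.95 and 0.911 RPKM in Ctrl libraries, overlapping groups with a log2 change of -0.19 (limma adjusted p = 0.213). Bub1 reached 1 RPKM in 3 libraries and Hmmr in 4, and Smc2 in 5, 3 of them the ABX libraries, so that it passed the filter mainly through the group where it was high. Ncapd2, another condensin subunit, had 4.46, 5.23 and 5.39 RPKM in ABX 5-FU and 5.5, 3.97 and 4.09 RPKM in Ctrl 5-FU libraries, against 6.68, 8.33 and 6.39 RPKM in ABX and 6.70, 6.19 and 6.04 RPKM in Ctrl libraries. The Ncapd2 groups did not overlap, and it fell by 0.43 with and 0.41 without antibiotics (limma adjusted p = 0.0198 and 0.0302), whereas Ncaph and the chromatin protein gene Hmgb2 had changes of -0.40 and -0.39 with and -0.36 and -0.45 without, none called. The condensin subunit gene Smc4 had 3.23, 3.46 and 3.27 RPKM in ABX 5-FU and 3.12, 3.04 and 3.02 RPKM in Ctrl 5-FU libraries, against 4.65, 4.78 and 3.30 RPKM in ABX and 3.52, 2.78 and 3.41 RPKM in Ctrl libraries. The Smc4 groups overlapped, with log2 changes of -0.27 with antibiotics and -0.06 without, neither called, and the value without antibiotics turned positive under all 3 rescalings.

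The 8 members under 1 RPKM in every library could be fitted with no filter on low values. All 8 had a log2 change below 0 in both comparisons, that of Cenpe without antibiotics being -0.006. These 8 count as not measured, and no share of unfiltered genes below 0 is given, so the signs are not read as a result. Ttk, a checkpoint kinase, had 0.273, 0.452 and 0.338 RPKM in ABX 5-FU libraries, against 0.711, 0.756 and 0.549 RPKM in ABX libraries, groups that did not overlap, with a change of -0.30 (limma adjusted p = 0.0976). None of the 8 passed the threshold, and their changes ran down to -0.30 with antibiotics and to -0.26 without.

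**Figure D3:**
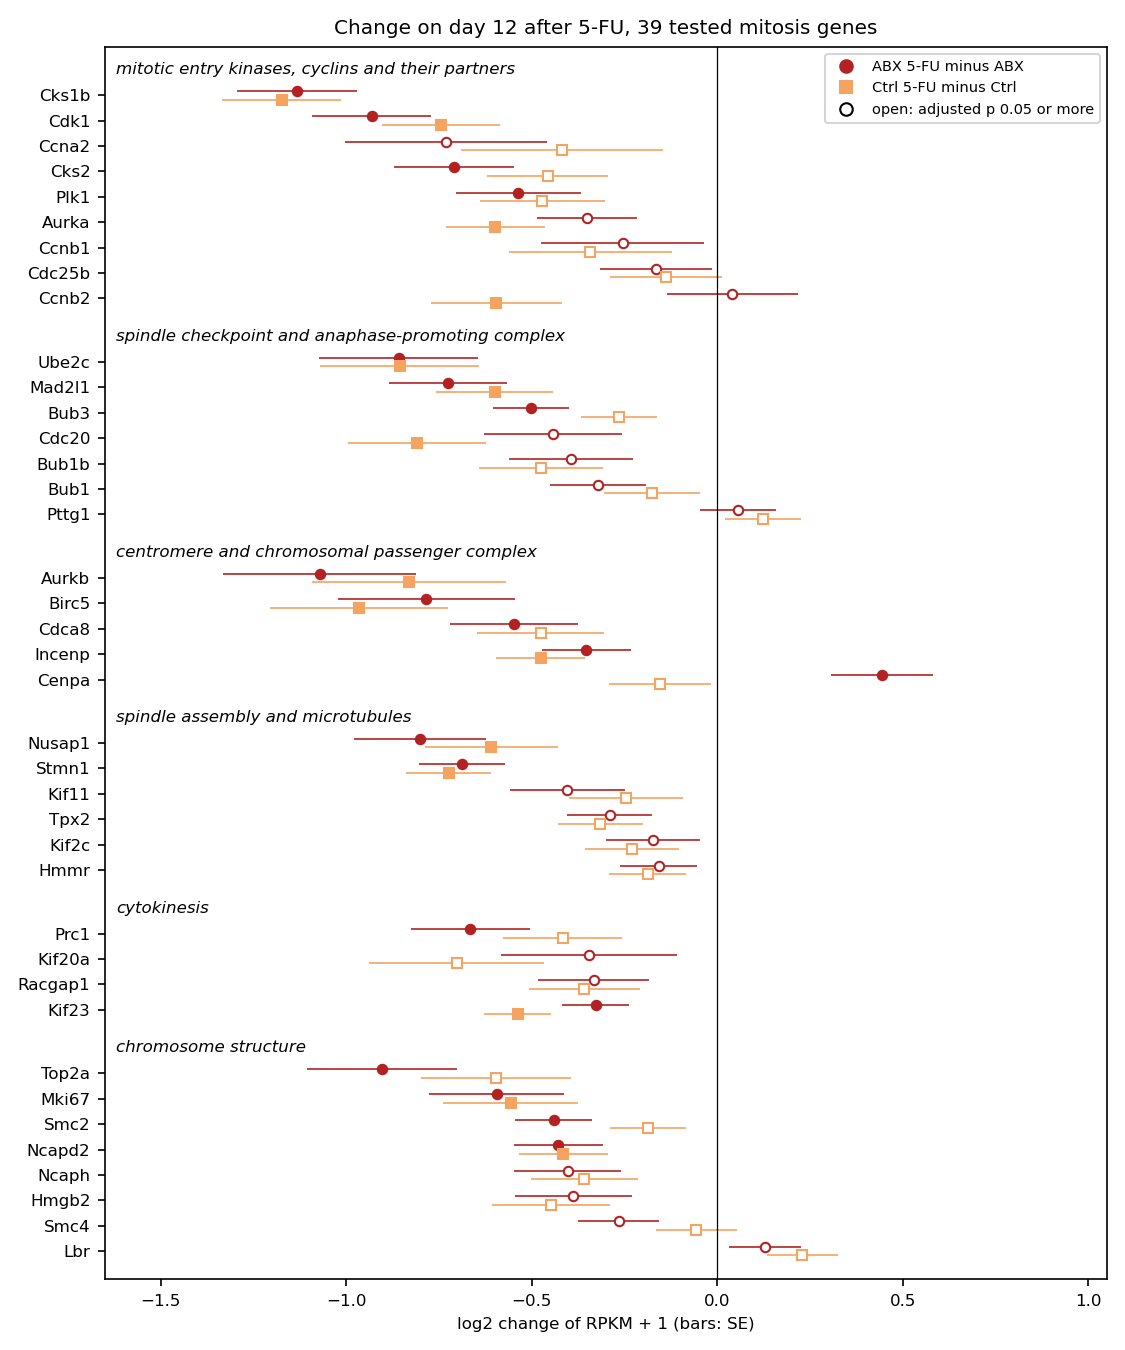
Log2 change of RPKM + 1 with its SE for the 39 tested members in role groups, as circles for ABX 5-FU minus ABX and squares for Ctrl 5-FU minus Ctrl, filled where the limma adjusted p is under 0.05. Most symbols lie left of 0, Cks1b at -1.13 and -1.17 farthest, and Cenpa at 0.44 is the filled symbol on the right.

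Among other genes of the same processes the counts differed from list to list. Of 125 such genes in the table, from lists of kinetochore, cohesin and condensin, spindle, anaphase-promoting complex and G2/M regulatory genes, 81 were tested, of which 32 fell and 3 rose in ABX 5-FU against ABX and 17 fell and 0 rose in Ctrl 5-FU against Ctrl libraries, beside the same shares of all genes as above. Of the 19 tested kinetochore and centromere genes, 13 fell with and 7 without antibiotics. Of 11 mitotic entry and exit regulators, 4 fell and 1 rose with and 3 fell without antibiotics, and of 14 spindle and cytokinesis genes 5 fell and 1 rose with and 4 fell without. Of 11 cohesin and condensin genes, 3 fell with and 2 without, and of 15 subunits and cofactors of the anaphase-promoting complex 4 fell and 1 rose with and 1 fell without, where the median log2 change of the 15 was 0.03. Spc24, a subunit of the Ndc80 complex that binds microtubules, averaged 5.01 ± 0.56 RPKM in ABX 5-FU and 5.42 ± 2.30 RPKM in Ctrl 5-FU libraries, against 14.5 ± 3.18 RPKM in ABX and 12.0 ± 2.76 RPKM in Ctrl libraries (SD, n = 3 each), with log2 changes of -1.36 and -1.05 (limma adjusted p = 0.00192 and 0.0107). Spc25 and Cenpm fell in both comparisons as well. Cdca5, the cohesin regulator sororin, fell by 0.91 and 1.06 on the log2 scale, and Fam64a (an older name of Pimreg) by 0.73 and 1.08. Pkmyt1, which inhibits Cdk1, and the kinase gene Pbk fell in both comparisons, and Bora, a cofactor of Aurora A, rose with antibiotics by 0.35. The other genes called higher there were Anapc16, a subunit of the anaphase-promoting complex (0.41), and Numa1, which anchors spindle poles (0.28) and was named after its value was seen. Anapc5 and Ncaph2 fell in both comparisons, by 0.26 and 0.36 with antibiotics and 0.31 and 0.37 without, as did the spindle genes Tacc3 and Kif22. Anapc11, Smc1a and the pocket protein gene Rbl1 fell with antibiotics, by 0.65, 0.25 and 0.26, and were not called without.

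Of 11 tested regulators of G2/M transcription, 3 fell with antibiotics and 0 without, beside 16.5% and 11.8% of all tested genes. With so few genes, these counts are not read as a result about the regulators. Foxm1, which drives transcription of mitotic genes, averaged 1.45 ± 0.29 RPKM in ABX 5-FU and 1.26 ± 0.52 RPKM in Ctrl 5-FU libraries, against 2.58 ± 0.64 RPKM in ABX and 1.84 ± 0.41 RPKM in Ctrl libraries. It fell by 0.54 with antibiotics (limma adjusted p = 0.0452), and its change without them was -0.34 (limma adjusted p = 0.198). Mybl2, which joins MuvB in activating these genes, fell by 0.52 with antibiotics (limma adjusted p = 0.0186), and its change without was -0.25 (limma adjusted p = 0.217). Wee1, which inhibits Cdk1, and Fzr1, the other activator of the anaphase-promoting complex, had log2 changes of -0.32 and 0.02 with antibiotics and 0.11 and 0.27 without, none called. None of the 81 genes passed the test of the difference between the comparisons with and without antibiotics.

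No member passed the threshold in either antibiotic comparison. In ABX 5-FU against Ctrl 5-FU libraries 0 of 39 members were called, beside 0.117% of all genes (10 genes), and 3 were higher and 1 lower at an unadjusted p under 0.05, beside 7.69% and 7.21% of genes. In ABX against Ctrl libraries 0 of 39 were called, beside 0.0702% of genes (6 genes), and 5 were higher and 0 lower at an unadjusted p under 0.05, beside 10.8% and 6.91% of genes. The median log2 change was 0.09 in the first comparison and 0.10 in the second, against 0.01 and 0.02 for all genes. With single libraries left out the first ran between 0.01 (without Ctrl 5-FU replicate 2) and 0.23 (without Ctrl 5-FU replicate 1), and it was 0.20 without ABX 5-FU replicate 1 and 0.06 without ABX 5-FU replicate 3. The second ran between 0.03 (without ABX replicate 2) and 0.19 (without Ctrl replicate 1), and was 0.06 without Ctrl replicate 2 and 0.16 without ABX replicate 3. The difference between the 5-FU changes with and without antibiotics was called for 0 of 39 members, beside 0.0117% of genes, with 2 higher and 0 lower at an unadjusted p under 0.05, beside 4% and 4.3% of genes. Without Ctrl 5-FU replicate 1, Ccnb2 was called higher in ABX 5-FU against Ctrl 5-FU libraries, with a change of 0.81 (limma adjusted p = 0.0414).

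The members nearest the threshold were few. Kif23 had 0.908, 1.46 and 1.09 RPKM in ABX 5-FU libraries, against 0.574, 0.560 and 0.573 RPKM in Ctrl 5-FU libraries, groups that did not overlap, with a log2 change of 0.45 ± 0.09 (limma adjusted p = 0.0764). Cenpa, Ccnb2 and Bub3 had changes of 0.48, 0.58 and -0.33 in the same comparison (limma adjusted p = 0.139, 0.161 and 0.165), each with groups that did not overlap. In the comparison without 5-FU Smc2 (chromosome 4, 52439243 to 52488260) had 1.61, 1.78 and 1.28 RPKM in ABX libraries, against 1.17, 0.95 and 0.911 RPKM in Ctrl libraries, a log2 change of 0.34 ± 0.10 (limma adjusted p = 0.16). Smc4, Kif23 and Ccna2 followed with 0.30, 0.24 and 0.72 (limma adjusted p = 0.211, 0.219 and 0.219). The Smc4 and Ccna2 groups overlapped and the Kif23 groups did not. No share of all tested genes without overlap is given for the antibiotic comparisons. A lack of overlap there is therefore not read as a difference.

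**Figure D4:**
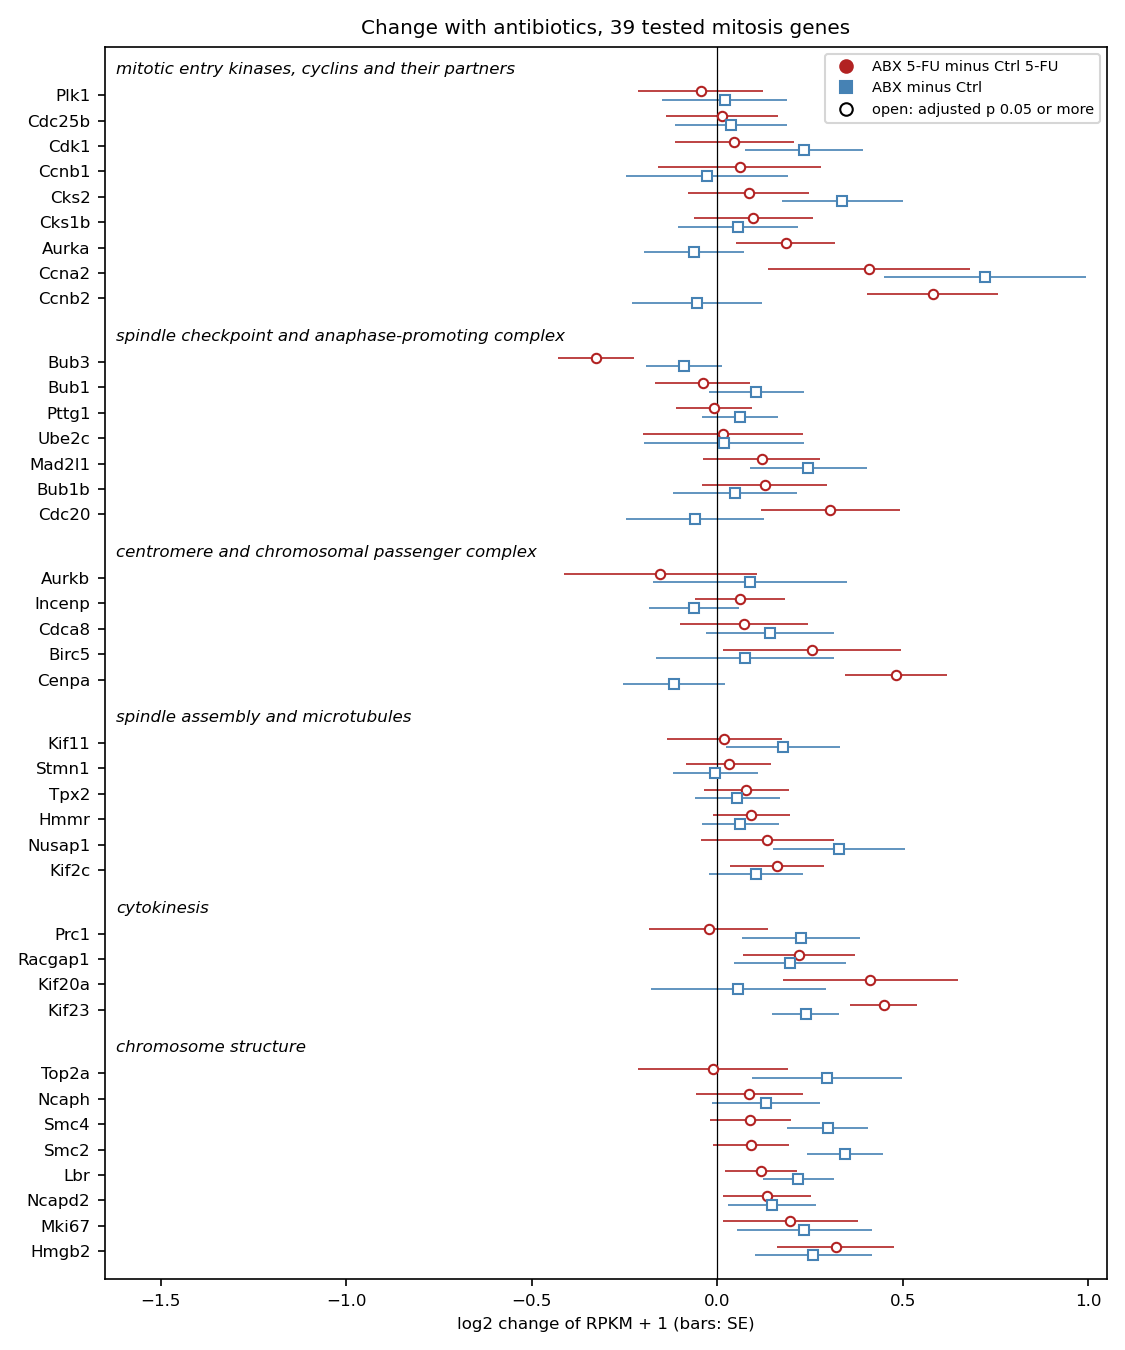
Log2 change of RPKM + 1 with its SE for the 39 tested members, as circles for ABX 5-FU minus Ctrl 5-FU and squares for ABX minus Ctrl. Every symbol is open, and the values run from -0.33 for Bub3 to 0.72 for Ccna2.

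Some values are uncertain because other loci share sequence with the gene. Cks2 is identical over 240 bases to the processed pseudogene Gm15452, listed at up to 89.3 RPKM against 17.1 RPKM for Cks2. The sum of both was 52.0 to 64.4 RPKM in ABX 5-FU libraries, against 85.2 to 106 RPKM in ABX libraries, and 43.7 to 62.3 RPKM in Ctrl 5-FU libraries, against 68.6 to 82.7 RPKM in Ctrl libraries. Neither pair overlapped, and Gm15452 itself fell by 0.65 with and 0.63 without antibiotics (limma adjusted p = 0.0062 and 0.0104). Hmgb2 shares sequence with Gm13237, listed at up to 118 RPKM. Gm13237 changed by -0.26 with and -0.51 without antibiotics (limma adjusted p = 0.0936 and 0.00961). Hmgb2 plus Gm13237 was 141 to 156 RPKM in ABX 5-FU libraries, against 171 to 214 RPKM in ABX libraries. It was 93.9 to 131 RPKM in Ctrl 5-FU libraries, against 141 to 170 RPKM in Ctrl libraries. Ccnb1, Mad2l1 and Cdc20 share sequence with pseudogenes listed at under 4 RPKM. Ccna2, Cdc20, Kif20a, Nusap1 and Cdca8 overlap an expressed gene on the opposite strand (Exosc9, Elovl1, Cdc23, Oip5 and 9930104L06Rik), and no strand setting of the counts is given.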

How the data were processed

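Sorted-HSC libraries were made with SMART-Seq v4 and Nextera XT, per the labels' protocols. STAR 2.5.3a, Partek and mm10 are named in the submitters' processing notes, and no counting rule, strand setting or annotation release is given. The authors deposited RPKM values, unscaled to a common total (142127 to 176924 summed per library), with 0.0001 in place of 0. Read totals were estimated from the steps between low values, of which 50.2% to 54.9% lay within 2% of whole steps, so whole reads could not be recovered for a count test. Such depths leave counting error in values of a few RPKM.

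Values were analysed as log2(RPKM + 1), which understates changes of low genes, for genes reaching 1 RPKM in 3 or more libraries. All 12 libraries were fitted in 1 limma 3.58.1 model (R 4.3.3) with 4 group means, 8 residual degrees of freedom, an intensity trend, two-sided tests and Benjamini-Hochberg adjustment over 8553 genes, called at 0.05. The fit was tested on simulated data. The interaction is the 5-FU change with antibiotics minus that without. Groups do not overlap where all libraries of one lie above all of the other. Near-identical copies were sought in GENCODE M21 transcripts with BLAST+ 2.17.0 (200 bases, 95%). Alternatives were the offset, the filter, the trend, an i7 index block, rescaling, and leaving out each library, and 2 rescalings were chosen after seeing the data. Symbols absent from the table (Knl1, Sgo1, Sgo2a, Haspin, Pimreg) were looked up by older names. Members and lists were chosen with earlier results of these data known. Named members are Mki67, Top2a, Ccnb1, Cdk1, the 3 smallest and the largest p of each role for 5-FU, and the 4 smallest p of each antibiotic comparison, the other members being named after their values were seen. Other pathway genes are up to 3 called per list by p, and Foxm1, Mybl2, Wee1 and Fzr1.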

Additional observations from a re-analysis of the deposited data

How the results depend on the processing

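The median log2 change of the members stayed below 0 in every alternative of both 5-FU comparisons, and the number called did not stay near its reported value. In ABX 5-FU minus ABX, the members called lower numbered 11 with no filter and 12 when rescaled to one total (TPM), and 11 to 25 when each library was left out in turn. Called higher were 0 with no filter and 0 to 1 with a library left out, and the median was -0.57 with an offset of 0.1. In Ctrl 5-FU minus Ctrl, members called lower numbered 5 with no filter, 8 when rescaled to one total, and 6 to 28 with a library left out. Called higher was 1, Lbr, under each of the 3 rescalings. In ABX 5-FU minus Ctrl 5-FU, 0 to 1 members were called higher with a library left out. No called member of either 5-FU comparison changed sign in any alternative. Calls held in all 18 alternatives for 10 of the 20 called members with antibiotics (Bub3, Cdk1, Cks1b, Cks2, Mad2l1, Nusap1, Prc1, Smc2, Stmn1 and Top2a) and for 5 of the 15 without (Aurka, Cdk1, Cks1b, Kif23 and Stmn1). Pairs of libraries with and without antibiotics share an i7 index, and a block on it, the paired fit these data allow, gave 0 calls among members in both antibiotic comparisons and the interaction. The cause of these differences was not tested. No paired analysis was possible for the 5-FU comparisons because their groups share no i7 index and the labels give no replicate numbers.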
